A study of Mus musculus with 12 samples.

Results

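Ferritin and the genes that share its regulation by iron regulatory proteins were examined in the mRNA of exosomes released by HL-1 cells. HL-1 is a line of mouse atrial cardiomyocytes that keeps beating in culture, and exosomes are small vesicles that a cell sheds into its medium. The set consisted of 7 genes given by name, namely Fth1, Ftl1, Tfrc, Slc40a1, Slc11a2, Aco1 and Ireb2, and all of their probes on the array were taken. These were 9 of the 25696 probes, and 7 of the 16593 named genes. Fth1 and Tfrc had 2 probes each and the other 5 genes had 1 probe each. The genes were chosen by the detection calls and the spread of Fth1, whose first probe was detected on all 12 arrays and was held to vary little between them. Detection and spread of Fth1 are therefore given as a description without a test.

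The 3 groups were TGF-β2 at 10 ng/mL, PDGF-BB at 100 ng/mL and an untreated control, with 4 samples each. In all of them the cells stood in serum-free medium for 23 h, and each sample was the exosome RNA of 1 culture flask on 1 Illumina MouseRef-8 array. All samples thus came from a single cell line, and p-values measured the spread between flasks. The arrays lay on 2 chips, with 2 samples of each group on either.

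Cells keep their free iron within bounds largely by acting on mRNA. When iron is scarce, the iron regulatory proteins IRP1, encoded by Aco1, and IRP2, encoded by Ireb2, bind a short hairpin called the iron-responsive element. A hairpin ahead of the coding region, as in the mRNAs of both ferritin chains and of the iron exporter ferroportin, lets the bound protein hold back translation, whereas hairpins behind the coding region, as in the mRNA of the transferrin receptor, let it protect the mRNA from decay. Cardiomyocytes need iron for their mitochondria and myoglobin and store the surplus in ferritin.

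Few transcripts were measurable in the exosome RNA. A probe was called detected where its detection p-value, the share of negative control beads brighter than the probe, was below 0.01, a limit that chance alone passes for about 257 probes per array. Between 294 (PDGF-BB sample 4) and 1506 (TGF-β2 sample 3) probes were detected per array, and 22360 of the 25696 probes (87%) were detected on no array. PDGF-BB sample 1 stood apart, with a median correlation of 0.232 with the other arrays over the probes tested, followed by control sample 1 with 0.525. The paper excluded a PDGF-BB sample as an outlier, for poor hybridization and labelling. Since the labels do not say which, all samples were used here, and the PDGF-BB values include it. Of 22 cardiomyocyte marker genes on the array, 7 were detected on at least 1 array, with Myl4 and Atp2a2 on 11 each, and 15 were detected on none, while on average 16.7% ± 8.95 of the markers were detected per array, against 3.84% ± 1.96 of all named genes (SD, n = 12 arrays). Markers of fibroblasts were detected on at least 1 array for 2 of 10 genes, of endothelium for 0 of 10 and of leucocytes and macrophages for 1 of 9. For markers of red cells the count was 1 of 9 and for those of liver 1 of 7. By the same measure 2877 of all 16593 named genes were detected, and 131 of 1199 olfactory and vomeronasal receptor genes.

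Detection divided the 7 genes sharply. Together the 9 probes gave 26 detections out of 108 readings, and 22 of these belonged to Fth1. The other 7 probes gave 4 detections in 84 readings. Fth1 probe 1 was detected on 12 of 12 arrays and Fth1 probe 2 on 10 of 12. Tfrc, the receptor that takes up transferrin-bound iron, was detected by its probe 1 on 2 arrays, and Slc40a1, which encodes ferroportin, on 2 arrays. Ftl1, Slc11a2, Aco1, Ireb2 and the second Tfrc probe were detected on none. Over the whole array 26 of the 25696 probes (0.101%) were detected on every array, 110 (0.428%) on at least 10, 1728 (6.72%) on at least 2 and 629 (2.45%) on exactly 2. At least 1 detection was found for 3336 probes (13%). At a looser limit of 0.05, which 30% of all probes passed on at least 1 array, Slc11a2 joined Fth1, Tfrc and Slc40a1 as the fourth gene with a detection.

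**Figure D1:**
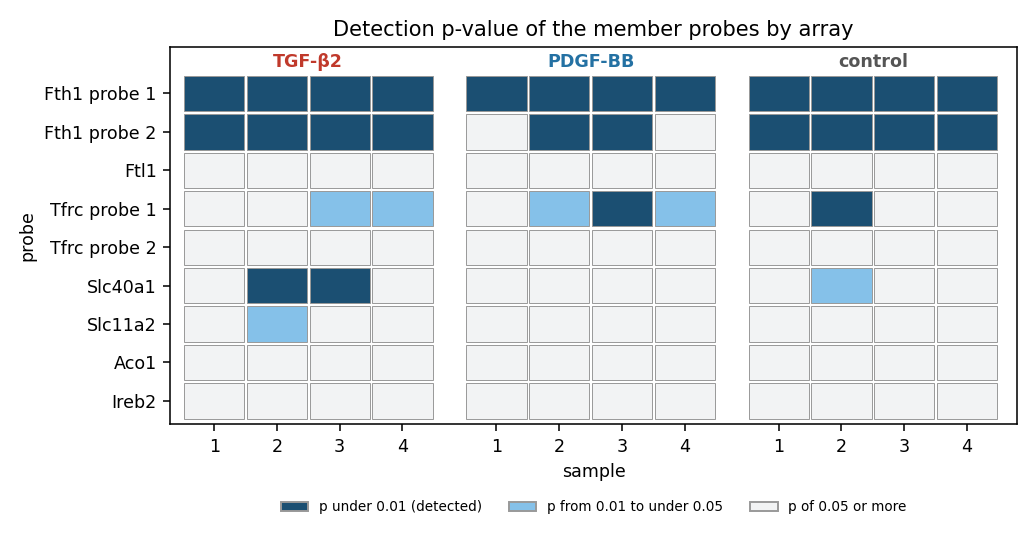
Detection of each of the 9 probes (rows) on each of the 12 arrays (columns, in the order TGF-β2, PDGF-BB, control), shown by the detection p-value. Fth1 probe 1 was detected at p below 0.01 on all 12 arrays and Fth1 probe 2 on 10, and the other 7 probes together gave 4 detections.

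Fth1 encodes the ferritin heavy chain, the subunit that oxidises iron for storage. Its first probe gave background-subtracted signals of 198, 386, 579 and 178 in TGF-β2 samples 1 to 4. The signals were 92.1, 86.4, 928 and 123 in PDGF-BB samples 1 to 4, and 82.2, 391, 401 and 293 in control samples 1 to 4. The groups overlapped fully, since the highest and the second-lowest of the 12 values both lay in the PDGF-BB group and the lowest was control sample 1. The mean signal was 335 ± 187 in TGF-β2, 307 ± 414 in PDGF-BB and 292 ± 148 in control samples (SD, n = 4 each). From the dimmest to the brightest array the signal differed 11.3-fold. The standard error over the beads of one array was between 5% and 22.5% of the signal, and the 3 lowest arrays (82.2 to 92.1) lay within it of each other. On each array the probe nevertheless ranked among the brightest, at place 37 to 176 of 25696.

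The second Fth1 probe gave signals of 185, 438, 574 and 223 in TGF-β2 samples 1 to 4. It gave 27.2, 65.2, 945 and 39.3 in PDGF-BB samples 1 to 4, and 63.3, 686, 320 and 248 in control samples 1 to 4. It was not detected in PDGF-BB samples 1 and 4, with detection p-values of 0.244 and 0.114, and PDGF-BB sample 2 lay just inside the limit with 0.00752. Of all probes, 47 (0.183%) were detected on the 4 TGF-β2 and the 4 control arrays without being detected on every PDGF-BB array. The 4 lowest signals of Fth1 probe 2 lay on the arrays with the fewest detected probes, namely 421, 322 and 294 in PDGF-BB samples 1, 2 and 4 and 463 in control sample 1. Whether few detected probes account for the missing detections of Fth1 probe 2 was not tested, and in bulk samples fewer vesicles and less RNA per vesicle cannot be told apart.

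**Figure D2:**
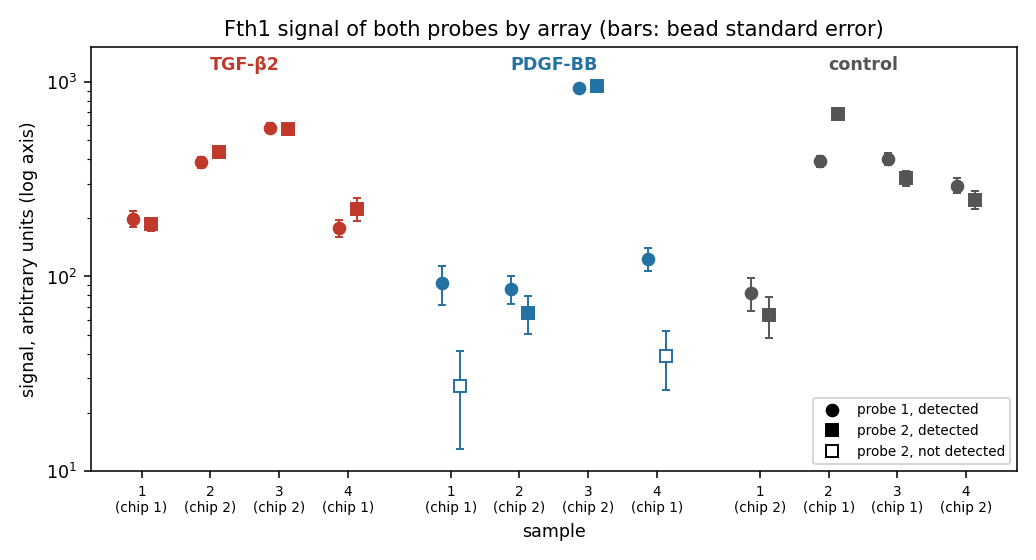
Background-subtracted signal of both Fth1 probes (log axis) in each of the 12 samples, grouped as TGF-β2, PDGF-BB and control. For probe 1 the values ran between 82.2 and 928, and for probe 2 between 27.2 in PDGF-BB sample 1 and 945 in PDGF-BB sample 3.

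The signal of Fth1 moved with the number of probes that an array detected. Over the 12 arrays, log2 signal and log2 number of detected probes had a Pearson r of 0.88 and a Spearman rho of 0.90 for probe 1, and 0.86 and 0.85 for probe 2. Without the arrays with the 2 most distant probe numbers the r was 0.88 and 0.90. The points share the array's overall brightness, which enters both axes. After quantile normalization, which gives every array the same distribution of values, the relation for probe 1 was weaker (r 0.15, rho 0.09, and 0.45 without those 2 arrays), and that for probe 2 was 0.64 (rho 0.62, and 0.83 without them).

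**Figure D3:**
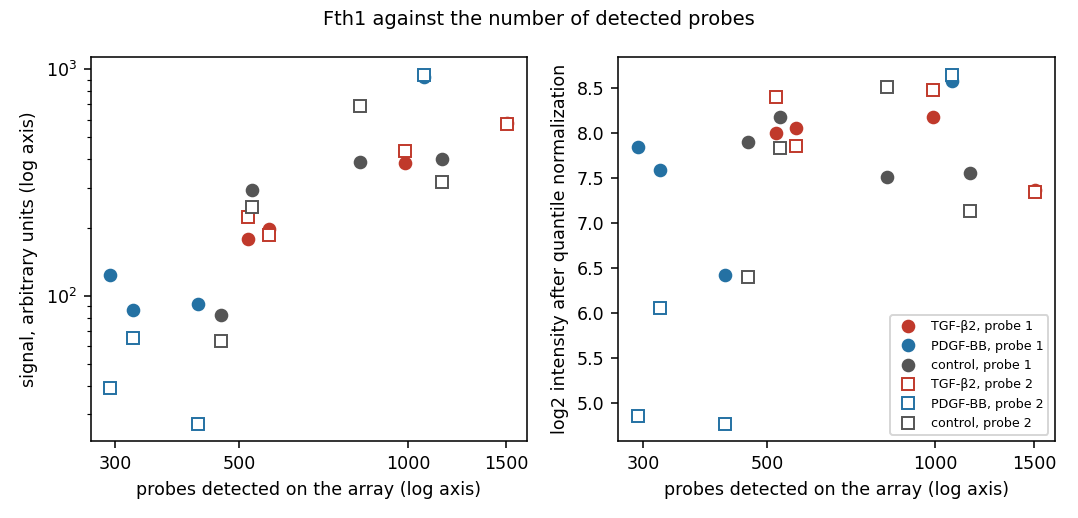
Fth1 signal on a log axis (left) and log2 intensity after quantile normalization (right) against the number of probes detected on the array, with 1 point per array and probe coloured by group. The r over 12 arrays was 0.88 for probe 1 before normalization and 0.15 after it.

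The description of Fth1 as a transcript of little spread thus held in part, and for probe 1 only. After quantile normalization the SD of the log2 intensity of probe 1 over the 12 arrays was 0.55, the ninth smallest among the 26 probes detected on every array, whose SDs had a median of 0.69 and ran between 0.28 and 1.19. With the authors' cubic spline values it was 0.47, place 4 of the 26. When arrays were only scaled to a common median, it was 1.58, place 13 of the 26 and equal to their median to 2 decimals, and for the scanner signals it was 1.15 against a median of 1.24. Probe 1 was therefore one of several probes detected on every array, and its place among them depended on how arrays were scaled. The description did not hold for Fth1 probe 2, whose SD was 1.39 after quantile normalization, above the highest of the 26. With the cubic spline values it was 1.26, against a highest of 1.11. With median scaling it was 1.82, within their range (median 1.58, highest 2.17). The comparison is of unlike probes, since the 26 were detected on every array and probe 2 was not detected in PDGF-BB samples 1 and 4.

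After quantile normalization, Fth1 probe 1 had log2 intensities of 8.05, 8.17, 7.36 and 8.0 in TGF-β2 samples 1 to 4. They were 6.42, 7.58, 8.58 and 7.85 in PDGF-BB and 7.90, 7.51, 7.55 and 8.17 in control samples 1 to 4. The PDGF-BB group held both the lowest and the highest value. The mean was 7.90 ± 0.36 in TGF-β2, 7.61 ± 0.90 in PDGF-BB and 7.78 ± 0.31 in control samples (SD, n = 4 each).

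For probe 2 the log2 intensities were 7.86, 8.48, 7.34 and 8.40 in TGF-β2 samples 1 to 4. They were 4.76, 6.05, 8.65 and 4.85 in PDGF-BB and 6.40, 8.51, 7.14 and 7.83 in control samples 1 to 4. PDGF-BB samples 1, 2 and 4 lay below every other sample and PDGF-BB sample 3 above every other. The mean was 8.02 ± 0.53 in TGF-β2, 6.08 ± 1.81 in PDGF-BB and 7.47 ± 0.91 in control samples (SD, n = 4 each).

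The fitted differences in log2 intensity (limma) were small for probe 1. They were 0.11 ± 0.39 for TGF-β2 minus control, -0.18 ± 0.39 for PDGF-BB minus control and 0.29 ± 0.39 for TGF-β2 minus PDGF-BB (± SE). Without PDGF-BB sample 1 the PDGF-BB difference from control was 0.22 and the TGF-β2 difference from PDGF-BB was -0.11, so that both turned their sign with that single array. Without PDGF-BB sample 3 these differences were -0.50 and 0.60. Without TGF-β2 sample 3 the TGF-β2 difference from control was 0.30, against 0.11 with all samples. With median scaling the PDGF-BB difference from control was -0.97 and the TGF-β2 difference from PDGF-BB was 1.27.

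The differences were wider for probe 2, at 0.55 ± 0.77 for TGF-β2 minus control, -1.39 ± 0.77 for PDGF-BB minus control and 1.94 ± 0.77 for TGF-β2 minus PDGF-BB, where 2 of the 4 PDGF-BB arrays had detected the probe. On leaving out each sample, the PDGF-BB difference from control ran from -2.14, without PDGF-BB sample 3, to -0.99. The TGF-β2 difference from PDGF-BB ran from 1.55 to 2.67. The TGF-β2 difference from control was 0.19 without control sample 1 and 0.89 without control sample 2. On chip 1 both PDGF-BB arrays, samples 1 and 4, were under the limit of detection, so that only a bound can be given. By the group means, probe 2 was at least 5.97-fold higher in TGF-β2 than in PDGF-BB and at least 4.83-fold lower in PDGF-BB than in control. Each group had 2 arrays there, and neither difference had an adjusted p below 0.05 (limma, chip 1). Probe 1, which was detected on the same arrays, differed less there, as given below. Such a bound sets the mean of the brighter group against, on each array of the dimmer group, the lowest level of any detected probe or the probe's own where that was higher. On chip 2 probe 2 differed by 0.23 for PDGF-BB minus control and by 0.56 for TGF-β2 minus PDGF-BB. For probe 1 TGF-β2 differed from control by 0.50 on chip 1 and by -0.27 on chip 2, PDGF-BB from control by -0.40 and 0.05, and TGF-β2 from PDGF-BB by 0.89 and -0.32. The direction of the probe 1 differences was thus not shared by the chips. In the fit across all probes that passed the filter (detection on at least 3 of the 12 arrays), 0 of 1099 (0%) had an adjusted p below 0.05 in each of the 3 comparisons, and 8, 48 and 52 had an unadjusted p below 0.05 for TGF-β2 against control, PDGF-BB against control and TGF-β2 against PDGF-BB. Both Fth1 probes were among the 1099 (4.28% of all probes), and they were the only ones of the 9 to pass this filter. In neither of them did any pair of groups separate, as the groups did in 0.637%, 1.73% and 1.91% of the 1099 probes in these comparisons, in the same order.

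Over the 12 arrays the log2 signals of the 2 Fth1 probes had an r of 0.93 and a rho of 0.90, where all points share the arrays' brightness, and their normalized log2 intensities had an r of 0.63 and a rho of 0.56. Detection differed in PDGF-BB samples 1 and 4, where probe 1 was detected and probe 2 was not. There the log2 signal of probe 1 minus that of probe 2 was 1.76 and 1.65, with bead standard errors of 0.82 and 0.52. In control sample 2 it was -0.81, with a bead standard error of 0.14. After normalization probe 1 also lay above probe 2 in PDGF-BB sample 2 (7.58 against 6.05) and control sample 1 (7.90 against 6.40). The normalized values were closest in TGF-β2 sample 3, at 7.36 and 7.34. The RefSeq gene table lists pseudogenes of both ferritin chains, and whether either probe also read transcripts of these was not tested.

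Slc40a1 encodes ferroportin, the only known exporter of iron from cells, and its mRNA carries the hairpin at the same end as that of ferritin. The probe gave signals of 31.8, 73.3, 114 and 13 in TGF-β2 samples 1 to 4. It gave 20.3, 14.9, 8.14 and 20.5 in PDGF-BB samples 1 to 4, and -1.31, 75.3, 2.68 and 21.3 in control samples 1 to 4. The 3 high samples were TGF-β2 samples 2 and 3, where the probe was detected with a p-value of 0 each, and control sample 2, which missed the limit with 0.0125. TGF-β2 samples 2 and 3 detected 989 and 1506 probes in all, against 564 and 518 in TGF-β2 samples 1 and 4. PDGF-BB sample 3 and control sample 3, with 1070 and 1152 detected probes, did not detect Slc40a1. Whether the number of detected probes accounts for the pattern was not tested. The pattern of at least 2 detections in TGF-β2 and none elsewhere was found for 65 of the 25696 probes (0.253%).

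The log2 intensity of Slc40a1 averaged 5.07 ± 0.36 in TGF-β2, 4.72 ± 0.03 in PDGF-BB and 4.77 ± 0.19 in control samples (SD, n = 4 each). In a fit of all 25696 probes, made since the probe did not pass the filter, the difference was 0.29 ± 0.15 for TGF-β2 minus control and 0.35 ± 0.15 for TGF-β2 minus PDGF-BB, with an adjusted p of 0.998 for TGF-β2 against PDGF-BB (limma with Benjamini-Hochberg adjustment). On chip 2, which held TGF-β2 samples 2 and 3, TGF-β2 was higher than control by 0.67, and on chip 1 the difference was -0.08. Without TGF-β2 sample 2 the difference from control was 0.16. No fold is given, since the other groups were below the limit of detection and the bound they allowed was under 1.

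Tfrc encodes the transferrin receptor, the main route of iron uptake, and its mRNA carries hairpins at the other end. Its probe 1 gave signals of 36.1, 19.7, 57.1 and 52.4 in TGF-β2 samples 1 to 4. The signals were 47.7, 56.9, 102 and 53.4 in PDGF-BB samples 1 to 4, and 27.4, 87.6, 42.5 and 31.0 in control samples 1 to 4. PDGF-BB sample 3 and control sample 2 were the brightest and the only ones in which the probe was detected, with p-values of 0 and 0.00877. They detected 1070 and 820 probes in all, the former being the most in the PDGF-BB group. TGF-β2 sample 3, with 1506 detected probes, did not detect Tfrc probe 1. A part played by the number of detected probes was not tested. The log2 intensity averaged 4.88 ± 0.09 in TGF-β2, 5.18 ± 0.29 in PDGF-BB and 4.91 ± 0.16 in control samples (SD, n = 4 each).

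The difference for Tfrc probe 1 was 0.27 ± 0.13 for PDGF-BB minus control, with an adjusted p of 0.989, and -0.30 ± 0.13 for TGF-β2 minus PDGF-BB, with an adjusted p of 0.998 (limma, all 25696 probes). Within chip 2 the PDGF-BB difference from control was 0.59 and within chip 1 it was -0.06. Without PDGF-BB sample 3 it was 0.16. Within chip 1 the TGF-β2 difference from PDGF-BB was -0.02. No TGF-β2 array and 1 of the 4 PDGF-BB arrays detected the probe, and the bound on the fold in PDGF-BB over TGF-β2 was 1.03 with all samples and under 1 without PDGF-BB sample 3, so that no fold is given. The second Tfrc probe was detected nowhere and had signals between -28.6 and 42.0, below 0 on 10 of 12 arrays. Its highest value was also that of PDGF-BB sample 3, with a detection p-value of 0.0589. In control sample 2, the other array that detected probe 1, the second probe had a signal of -26.9.

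**Figure D4:**
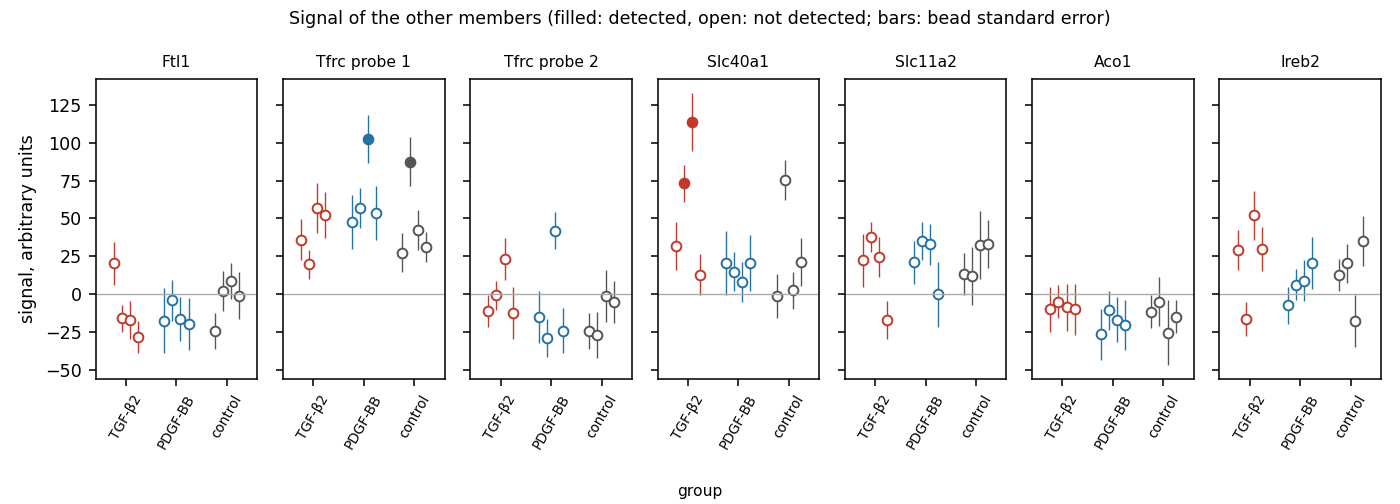
Background-subtracted signal (linear axis) of the 7 probes of Tfrc, Slc40a1, Ftl1, Slc11a2, Aco1 and Ireb2 in the 12 samples, grouped as TGF-β2, PDGF-BB and control, with detected values filled. The filled points are TGF-β2 samples 2 and 3 for Slc40a1 and PDGF-BB sample 3 and control sample 2 for Tfrc probe 1.

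Ftl1 encodes the ferritin light chain, the partner of Fth1 in the ferritin shell. Its single probe had signals between -28.4 and 20.5, with 9 of 12 below 0, and its lowest detection p-value was 0.223. The light chain was thus not detectable by this probe on any array, whereas Fth1 probe 1 ranked among the brightest probes on every array and Fth1 probe 2 was detected on 10 of the 12. Since a probe's brightness also depends on its own sequence, the levels of the 2 chains cannot be set against each other.

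Slc11a2 encodes the iron transporter DMT1, which carries ferrous iron across membranes and of which some mRNA forms hold the hairpin. Its signals lay between -17.0 and 37.9, and its lowest detection p-value was 0.0388, in TGF-β2 sample 2. Ireb2, the mRNA of IRP2, had signals between -17.6 and 52.1 and a lowest detection p-value of 0.0501. Aco1, the mRNA of IRP1 that acts as aconitase when it holds an iron-sulphur cluster, had signals between -26.5 and -4.82, below 0 on all 12 arrays. The single probe for the mRNA of either sensor protein was therefore under the limit of detection on every array.

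No difference between groups was called for these probes. The log2 differences of the 5 probes never detected lay between -0.04 and 0.09 over the 3 comparisons, with SEs between 0.03 and 0.08. With the cubic spline values they lay between -0.31 (Ireb2, PDGF-BB minus control) and 0.54 (Ireb2, TGF-β2 minus PDGF-BB). These values were near background, so the small differences and SEs do not show that levels were equal. Aco1 in TGF-β2 against PDGF-BB was the only one of the 27 combinations of probe and comparison in which the groups did not overlap. This was found for 2.12% of all probes in that comparison, against 1.97% for TGF-β2 and 2.37% for PDGF-BB against control, and all signals of Aco1 were below background. In the fit of all 25696 probes 0 (0%) had an adjusted p below 0.05 in any comparison, and 747, 1061 and 880 had an unadjusted p below 0.05 for TGF-β2 against control, PDGF-BB against control and TGF-β2 against PDGF-BB.

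**Figure D5:**
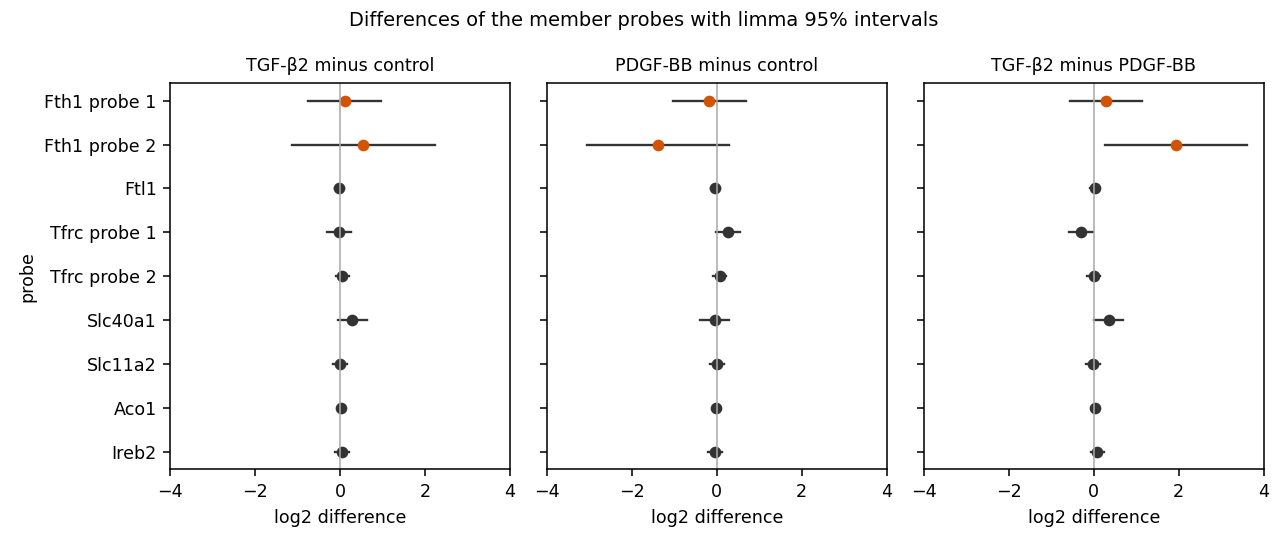
Fitted log2 difference with its 95% interval for each of the 9 probes (rows) in the 3 comparisons, with Fth1 from the fit of 1099 probes and the others from the fit of all 25696 probes. All 27 unadjusted intervals include 0 except those of Fth1 probe 2, Slc40a1 and Tfrc probe 1 for TGF-β2 minus PDGF-BB, and 0 probes of either fit had an adjusted p below 0.05.

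Other genes of iron metabolism were taken from 8 lists by role, which named 83 genes. Of these 71 were on the array, including the 7 genes above. Among the 64 others, 16 were detected on at least 1 array, 6 on at least 3 and 0 on all 12. In the lists, which include the 7 genes, 2 of 5 genes with a hairpin ahead of the coding region were ever detected, 2 of 5 with one behind it, and 0 of 4 among the iron regulatory proteins and the factors that control them. For iron uptake and membrane transport the count was 1 of 14. It was 2 of 5 for ferritin handling and iron chaperones, 6 of 16 for mitochondrial iron and iron-sulphur clusters, 5 of 14 for haem synthesis, transport and breakdown, and 1 of 8 for systemic iron control. Of all 16593 named genes, 2877 were detected on at least 1 array.

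Blvrb, a biliverdin reductase that acts in the breakdown of haem, was the most often detected of these other genes, on 6 arrays, with signals between 36.8 and 85.1. It was detected on 1 TGF-β2, 3 PDGF-BB and 2 control arrays. Alas1, which catalyses the first step of haem synthesis, was detected on 4 arrays (2 TGF-β2, 1 PDGF-BB and 1 control) with signals between 46.0 and 96.1. Abcb8, a mitochondrial transporter linked to iron export, was detected on 5 arrays by any of its 3 probes, and its most often detected probe on 4 (1 TGF-β2, 1 PDGF-BB and 2 control) with signals between 26.8 and 92.6. Glrx3, a glutaredoxin that handles iron-sulphur clusters, was detected on 5 arrays by any of its 4 probes and on 3 by the most often detected one. Smad4, a signal carrier of the TGF-β and BMP pathways that acts in hepcidin control, was detected on 4 arrays (1 TGF-β2, 1 PDGF-BB and 2 control) with signals between 6.61 and 286, and the haem transporter Slc48a1 on 3. None of the genes was detected on every array of a group. Ncoa4, the receptor that delivers ferritin for breakdown, and the haem oxygenases Hmox1 and Hmox2 were detected on none.

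The 6 of these genes that passed the filter showed no call in any comparison. For TGF-β2 against control 2 had a positive and 4 a negative difference, with a median of -0.06, against 639 positive and 458 negative of 1099 probes and a median of 0.05. For PDGF-BB against control the counts were again 2 and 4 with a median of -0.10, against 455 and 644 of all tested probes and a median of -0.06. For TGF-β2 against PDGF-BB they were 4 and 2 with a median of 0.09, against 727 and 372 and a median of 0.14. Their smallest adjusted p was 0.830, and 0 of the 6 had an unadjusted p below 0.05 (limma).

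The 5 genes whose pattern was most like that of Fth1 probe 1 were none of the iron genes listed. Among the 1098 other tested probes, which hold 6 of the 64 other iron genes and no probe of the other 6 genes of the set, the highest Pearson r with Fth1 probe 1 over the 12 arrays was that of Atp5g3, a subunit of mitochondrial ATP synthase, with 0.87. Myl4, the atrial myosin light chain, had 0.87 and the ribosomal protein genes Rpl23, Rpl37a and Rps21 had 0.85, 0.83 and 0.81. Without PDGF-BB samples 1 and 3 these were 0.67 for Atp5g3, 0.57 for Myl4, 0.39 for Rpl23, 0.36 for Rpl37a and 0.18 for Rps21, so that the likeness rested largely on those 2 arrays. The second Fth1 probe stood at place 33 with 0.63 (0.23 without those 2 arrays), and the median over the 1098 probes was 0.14. All points share the same arrays and normalization.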

How the data were processed

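The deposited table held, per the file headers, the intensity of each probe as a mean bead signal, its detection p-value, bead number and bead standard error. The authors' software had subtracted background, so that 44.8% of values were negative, and had not normalized between arrays. A value table held intensity normalized by the authors with cubic splines. Here, log2 intensity was computed from the deposited intensity with neqc (normexp background correction from detection p-values, offset 16, quantile normalization). Probes with a detection p-value below 0.01 on at least 3 of 12 arrays were tested with limma 3.58.1 (R 4.3.3) on all 3 groups, with Benjamini-Hochberg adjustment and a threshold of 0.05. Probes failing this filter were read from a fit without it. Symbols were those of the platform annotation: 23977 probes had 1 symbol and 1719 none. The members and lists were chosen with earlier results of these data known. Beyond the members, the 10 other iron genes detected on most arrays and the 5 genes most like Fth1 probe 1 could be named, besides genes of the lists chosen after their values were seen. Alternatives were the cubic spline values, median scaling, no further background correction, offset 50, other filters, only the compared groups, chip and replicate blocks, array weights, single chips and leaving out each sample. Groups came from sample titles, and the scripts were tested on simulated data.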

Additional observations from a re-analysis of the deposited data

Results flagged for a closer look

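In 27 groups of 4 samples (9 probes in 3 groups) the distance of the highest or the lowest sample from its nearest neighbour was set against the range of the group by Dixon's test, which by chance picks out about 1 in 20 groups. It picked out 3. Tfrc probe 1 in control sample 2 had a log2 intensity of 5.15 in a group with a range of 4.82 to 5.15. Tfrc probe 2 in PDGF-BB sample 3 had 4.90, with a group range of 4.54 to 4.90. Aco1 in PDGF-BB sample 2 had 4.60, with a group range of 4.56 to 4.60. Only the first was a detected value.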

How the results depend on the processing

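The counts of probes with an adjusted p below 0.05, which were 0 in each of the 3 comparisons, stayed at 0 under most alternatives. On chip 1 alone, 24 probes passed for PDGF-BB against control and 3 for TGF-β2 against PDGF-BB. Leaving out each sample gave 0 to 0 probes for TGF-β2 against control, 0 to 2 for PDGF-BB against control and 0 to 1 for TGF-β2 against PDGF-BB, where the 2 and the 1 were found without control sample 1. With the replicate number as a block the counts were 0, 0 and 0. Same-numbered samples correlated between -0.23 and 0.43, over 0.1 in 7 of 12 pairs against 10 of 36 pairs of other numbers. All pairs of samples 1 (0.23 to 0.39) and of samples 3 (0.37 to 0.43) were over 0.1, whereas those of samples 2 and 4 ran from -0.23 to 0.18. Since not every pair was over 0.1 and the labels name no shared origin, the numbers were not taken to pair the samples. Whether samples 1 or samples 3 shared a batch was not tested.

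With a detection p-value of 0 required, 0 of the 7 genes were detected on every array instead of 1. The 26 detections became 32 at a limit of 0.05 and 21 at a p-value of 0, and were 23 to 25 on leaving out each sample. The genes detected on at least 1 array numbered 3, and 4 at a limit of 0.05. On leaving out each sample, 1 to 1 genes were detected on every array and 3 to 3 on at least 1 array. The SD of Fth1 probe 1 was 1.58 with median scaling and 0.36 to 0.57 on leaving out each sample. Of 648 differences of single probes under the alternatives, 617 moved by less than 1 SD and 31 by more, and 0 reached an adjusted p below 0.05. This count pools all 9 probes, and the Fth1 differences ranged widely. For probe 2, PDGF-BB minus control ran from -3.02 to 0.23, and for probe 1, TGF-β2 minus PDGF-BB ran from -0.32 to 1.27. For Slc40a1, TGF-β2 minus control ran from -0.08 to 0.88. The causes were not tested. The number of arrays limits the precision, and 7 of the 9 probes lay near background.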
